A study of Homo sapiens with 2 samples.

Results

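The E2F factors are transcription factors that switch genes for DNA synthesis and cell division on or off, and the pocket proteins of the retinoblastoma family are the partners that hold them in check. All probe sets that the platform annotation assigns to 10 of these genes (E2F1, E2F2, E2F3, E2F4, E2F7, E2F8, TFDP1, RB1, RBL1 and RBL2) were taken from the array table, which gave 23 probe sets among 41091 that name 1 gene, and 10 genes among 19775 named. The genes were taken by name, from a list that was proposed with earlier results of these arrays known. Signal was read on Affymetrix whole-genome arrays, in which a probe set is a group of probes for 1 transcript. The first culture is Calu-3 stretched for 18 h, with sine-wave strain that ran from a minimum of 0.7% to a maximum of 20% (2 s of stretch, then 2 s of rest). The second is Calu-3 carried for 18 h without stretch. Both were grown on collagen-coated flexible plates to about 80% confluence per the protocol, in medium with 10% serum, and the labels name no genetic change in either. Calu-3 cells come from a human lung adenocarcinoma and have airway epithelial character, so any difference is that of 1 tumour line on a flexible plate. Each condition has 1 array, so no difference below has a replicate, an SD between cultures or a p-value, and the number of arrays limits the precision.

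In resting cells a pocket protein binds an E2F and its dimer partner on the promoter and recruits enzymes that close chromatin. Cyclin-dependent kinases phosphorylate the pocket protein before DNA synthesis, the E2F is released, and genes for replication are transcribed. E2F1, E2F2 and E2F3 are the activators of the family, E2F4 works mostly as a repressor together with RBL1 (p107) and RBL2 (p130), and the atypical members E2F7 and E2F8 repress without a dimer partner or a pocket protein. Several of these genes, among them E2F1, E2F2, E2F7, E2F8 and RBL1, are known to be E2F targets themselves.

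Because the family is known to act on its own promoters, the promoter letters are shown first. RefSeq promoter windows (GRCh38.p14, 250 bases before to 50 bases after a start site, 300 in all) were found for 9 of the 10 genes. The windows of all 3 activators and of the pocket proteins RBL1 and RBL2 are set side by side here, since they include both the members with large differences and the members without. They run 5′ to 3′ on the gene's strand, with E2F letters in capitals (TTNNCGC, in which each N is a C or a G, searched on both strands, with overlapping matches counted).
E2F1, chr20:33686336-33686635, minus strand: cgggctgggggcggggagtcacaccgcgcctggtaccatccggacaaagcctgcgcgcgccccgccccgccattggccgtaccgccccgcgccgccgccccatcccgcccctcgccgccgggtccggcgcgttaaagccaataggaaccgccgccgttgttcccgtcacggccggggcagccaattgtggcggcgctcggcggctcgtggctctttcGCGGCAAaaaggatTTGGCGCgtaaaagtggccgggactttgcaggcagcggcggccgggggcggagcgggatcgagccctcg
E2F2, chr1:23531184-23531483, minus strand: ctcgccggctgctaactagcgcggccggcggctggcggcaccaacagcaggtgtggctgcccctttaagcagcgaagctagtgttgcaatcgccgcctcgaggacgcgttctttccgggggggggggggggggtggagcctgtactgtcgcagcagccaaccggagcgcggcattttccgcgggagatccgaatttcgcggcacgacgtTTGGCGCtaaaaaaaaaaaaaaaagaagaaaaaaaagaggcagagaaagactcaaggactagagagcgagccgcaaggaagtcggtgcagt
E2F3, chr6:20401629-20401928, plus strand: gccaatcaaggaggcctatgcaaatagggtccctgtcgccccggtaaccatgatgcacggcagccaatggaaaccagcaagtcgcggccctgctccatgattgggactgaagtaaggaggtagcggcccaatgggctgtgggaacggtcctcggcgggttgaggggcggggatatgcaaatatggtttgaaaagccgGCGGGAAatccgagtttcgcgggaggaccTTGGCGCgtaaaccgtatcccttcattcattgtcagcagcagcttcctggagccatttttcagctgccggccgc
RBL1, chr20:37095948-37096247, minus strand: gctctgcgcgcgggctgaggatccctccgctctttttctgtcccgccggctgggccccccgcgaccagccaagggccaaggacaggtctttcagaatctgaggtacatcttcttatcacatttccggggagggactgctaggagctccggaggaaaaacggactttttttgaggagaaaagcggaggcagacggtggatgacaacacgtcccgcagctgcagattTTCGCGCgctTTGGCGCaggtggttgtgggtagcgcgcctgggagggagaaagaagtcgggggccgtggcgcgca
RBL2, chr16:53434221-53434520, plus strand: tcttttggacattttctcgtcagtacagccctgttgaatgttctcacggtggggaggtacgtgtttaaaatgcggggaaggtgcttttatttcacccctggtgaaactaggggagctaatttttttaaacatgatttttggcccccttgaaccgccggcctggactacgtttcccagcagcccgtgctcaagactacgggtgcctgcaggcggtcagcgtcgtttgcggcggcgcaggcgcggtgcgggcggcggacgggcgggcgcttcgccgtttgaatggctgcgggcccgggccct

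The E2F1 window held 2 such matches, the first bases of which lay 33 and 19 bases upstream of the start, one on each strand. The RBL1 window also held 2, at 25 and 15 bases upstream and both on the gene's strand. E2F2 had 1 match, 41 bases upstream. E2F3 had 2 starts in the table, and only the first had matches, at 53 and 24 bases upstream. Beyond the windows printed, E2F7 had 2 matches at 176 and 133 bases upstream and TFDP1 had 1 at 120 bases upstream. E2F4 and both RBL2 windows had none. The only RB1 window in the table starts 172699 bases into the gene, at an internal start, and was left out of the count.

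Of the 8 genes with a window near the gene's 5′ end, 6 held an E2F form, against 13.0% of all 35116 promoter windows of that length. The first share is over genes, counted if any window matched, and the second is over single windows. Base composition was not adjusted for. A match of letters is a description of the reference sequence. It does not show that a factor binds there, and a window without a match says only that these letters are absent from it.

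**Figure D1:**
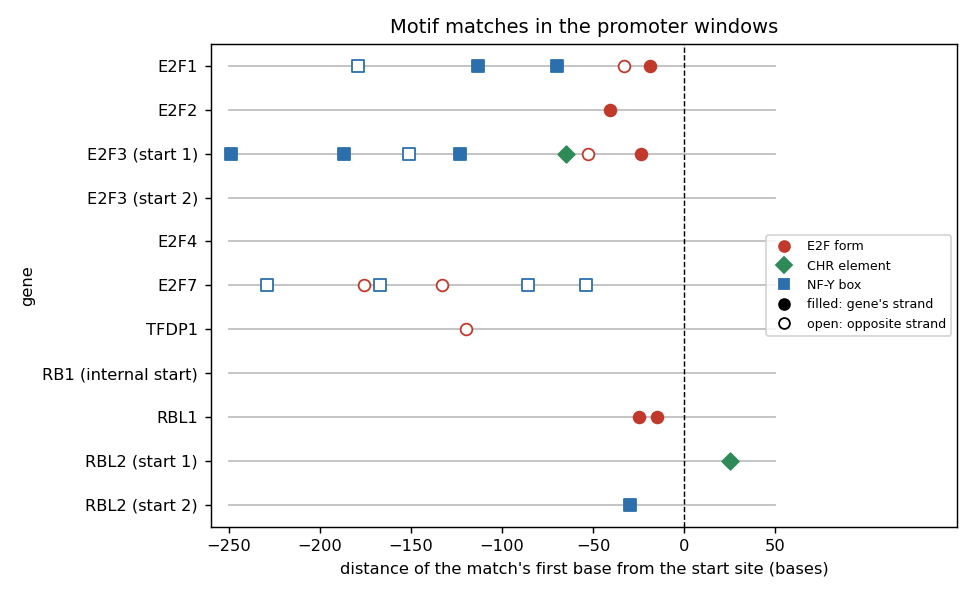
Position of motif matches in the promoter windows of the member genes; the x axis is the distance in bases of a match's first base from the start site (dashed line), each row is 1 window, circles are E2F forms, diamonds the CHR element of mitotic genes, squares the box bound by the factor NF-Y, filled symbols lie on the gene's strand and open ones on the opposite strand. E2F forms stand in the windows of E2F1, E2F2, E2F3 (first start), E2F7, TFDP1 and RBL1, and none stands in those of E2F4, RBL2 and the internal RB1 start.

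The comparison of the stretched with the non-stretched array asks which of these regulators differ at the transcript level between strained and unstrained airway cells. Of the 10 genes, 6 were 2-fold or more higher in the stretched array (E2F1, E2F2, E2F7, E2F8, TFDP1 and RBL1) and none was at least 2-fold lower, where the shares among the 13453 measured genes were 7.78% higher and 7.49% lower by that fold. The other 4 (E2F3, E2F4, RB1 and RBL2) differed by less than 2-fold. The genes that differed most included both activators and repressors. Differences are log2 stretched minus log2 non-stretched of a gene's brightest probe set. Signals below the median of an array (28.4 stretched, 28.7 non-stretched) were set to that median, called the floor here. Genes above it in 1 or both arrays count as measured, as all 10 did. E2F2 passed it only in the stretched array, which fixed its direction. The log2 differences of 1 gene's 2 brightest probe sets, over 5818 genes, put the SD of 1 probe set at 0.36, which covers probe noise and isoforms and not variation between cultures.

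Of the 23 probe sets, 18 were measured, 9 of these were higher by 2-fold or more and none was lower by that much, against 8.66% and 6.48% of the 24977 measured probe sets that name 1 gene. The other 5 lay below the floor in both arrays: 2 of E2F2, 1 of E2F7 and 2 of RBL1. Of the 18 measured, 4 passed the floor only in the stretched array (1 each of E2F2, TFDP1, RB1 and RBL1), so that filter fixed their direction. Those of E2F2 and TFDP1 are among the 9. In RNA from a whole culture, more cells with a transcript and more transcript per cell cannot be told apart.

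**Figure D2:**
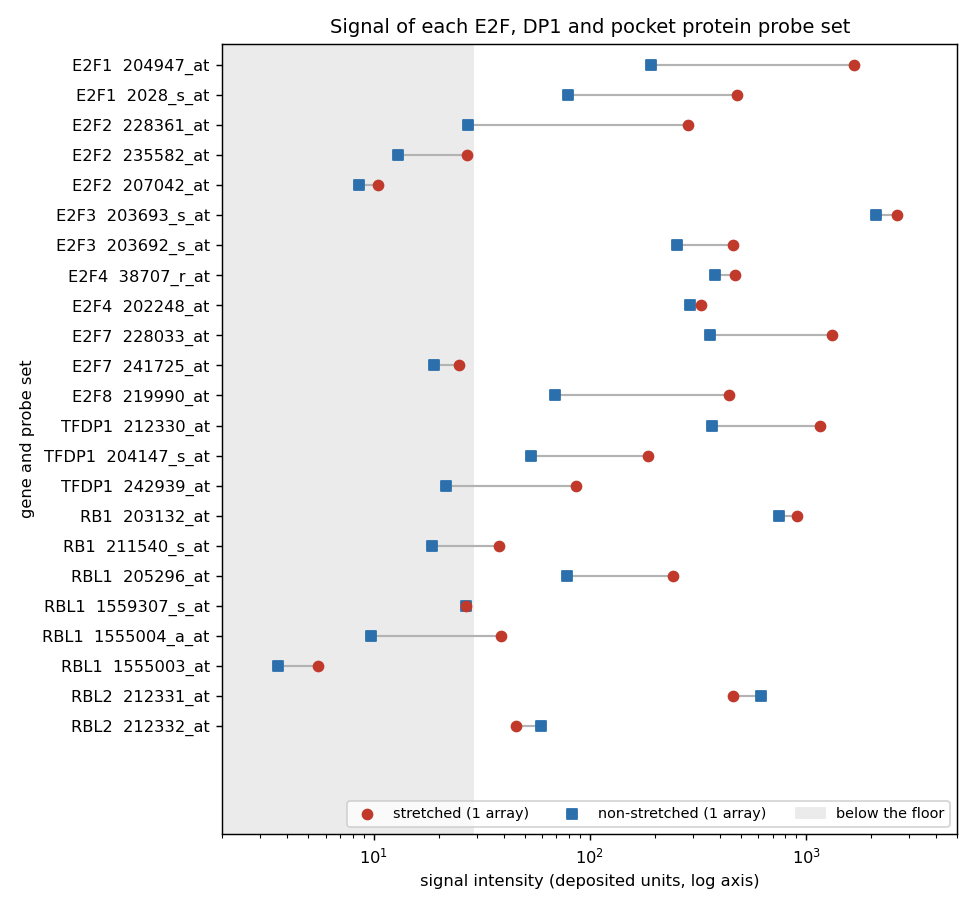
Deposited signal intensity (log axis) of each of the 23 probe sets in the stretched array (circles) and the non-stretched array (squares), joined by a line; shading marks signals below the floor. The 3 TFDP1 and both E2F1 probe sets are clearly apart between the arrays, those of E2F4 lie close together, and both of RBL2 are lower in the stretched array.

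Among the activators, E2F1, which drives S-phase entry and can also drive cell death, had a signal of 1670.4 in the stretched array and 191.4 in the non-stretched array in its brightest probe set, which was 8.73-fold higher (3.13 on the log2 scale). Its other probe set had 477.6 in the stretched and 79.2 in the non-stretched array, a log2 difference of 2.59. Both probe sets of E2F1 were therefore high in the stretched array, and among the 12185 genes above the floor in both arrays 20 had a larger difference.

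E2F2, a close relative of E2F1, had 285.5 in the stretched array, against 27.4 in the non-stretched array, just below the floor, so it was at least 9.95-fold higher. That value rests on a single probe set. Its other probe sets were dim, with 27.2 and 10.5 in the stretched array and 12.9 and 8.54 in the non-stretched array. All 3 E2F2 signals were higher in the stretched array, but values below the floor have no usable order.

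E2F3, the third activator, which is made in 2 forms from separate starts, had 2615 in the stretched array and 2108 in the non-stretched array, a log2 difference of 0.31. Its other probe set had 457.5 in the stretched and 252.1 in the non-stretched array, a log2 difference of 0.86. Neither reached 2-fold, both end in _s_at (probes that can match several transcripts), and which start each reports was not tested. E2F3 thus differed less than E2F1 and E2F2 in the same pair of arrays. Its first promoter window also holds E2F forms, and their part in these values was not tested.

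Among the repressor E2F genes, the atypical E2F8 had 438.5 in the stretched array and 69.2 in the non-stretched array by its 1 probe set, which was 6.34-fold higher (2.66 on the log2 scale). Of the genes above the floor in both arrays, 0.402% had a larger difference. The other atypical member, E2F7, had 1311 in the stretched array and 360.5 in the non-stretched array, 3.64-fold higher (1.86). Both atypical genes are known to feed back on E2F1 and on replication genes, which was not tested here. A second E2F7 probe set stayed below the floor, at 24.8 in the stretched and 19.0 in the non-stretched array.

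E2F4, the main repressor E2F of resting cells, had 467.7 in the stretched array and 377.6 in the non-stretched array, a log2 difference of 0.31. Its second probe set had 327.8 in the stretched and 289.9 in the non-stretched array (0.18). Both values are smaller than the SD of a single probe set (0.36), and the brighter one is larger than the robust SD (0.23), which gives less weight to genes whose probe sets disagree.

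TFDP1 encodes DP1, a dimer partner of the kind that E2F1 to E2F4 need to bind DNA. It had 1155 in the stretched array and 366.1 in the non-stretched array, 3.16-fold higher (1.66 on the log2 scale). A second probe set had 186.6 in the stretched and 53.6 in the non-stretched array (1.80), and the third had 86.6 in the stretched array and 21.6, below the floor, in the non-stretched array, at least 3.02-fold higher. All 3 probe sets were at least 2-fold higher, the third as a lower bound. TFDP1 also had the most measured probe sets of any member. Both of E2F1 and the only measured ones of E2F2, E2F7 and E2F8 were past that size too.

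The pocket proteins differed from each other. RBL1 (p107), which is scarce in resting cells and made as cells enter the cycle, had 242.3 in the stretched array and 78.0 in the non-stretched array, 3.11-fold higher (1.64). Of its dimmer probe sets, 1 had 38.9 in the stretched array and 9.78 in the non-stretched array, below the floor, and was at least 1.36-fold higher. The 2 others stayed below the floor in both arrays, at 26.6 and 5.52 in the stretched and 26.7 and 3.61 in the non-stretched array. The 3.11-fold value of RBL1 thus rests on its brightest probe set, since the next one has only a lower bound, and their average of 1.04 on the log2 scale is a lower bound too.

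RB1, the retinoblastoma tumour suppressor that mainly restrains the activators, had 910.5 in the stretched array and 751.7 in the non-stretched array, a log2 difference of 0.28. Its dim second probe set had 38.2 in the stretched array and 18.6 in the non-stretched array, which was at least 1.33-fold higher. The difference in the brighter probe set lies between the robust SD and the SD of a single probe set.

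RBL2 (p130), the pocket protein that is most abundant in resting cells, was the only member with a negative difference. It had 457.3 in the stretched array and 616.5 in the non-stretched array, a log2 difference of -0.43. Its other probe set had 45.5 in the stretched and 59.7 in the non-stretched array (-0.39). Both RBL2 probe sets were lower in the stretched array, by less than 2-fold and by little more than the SD of a single probe set.

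**Figure D3:**
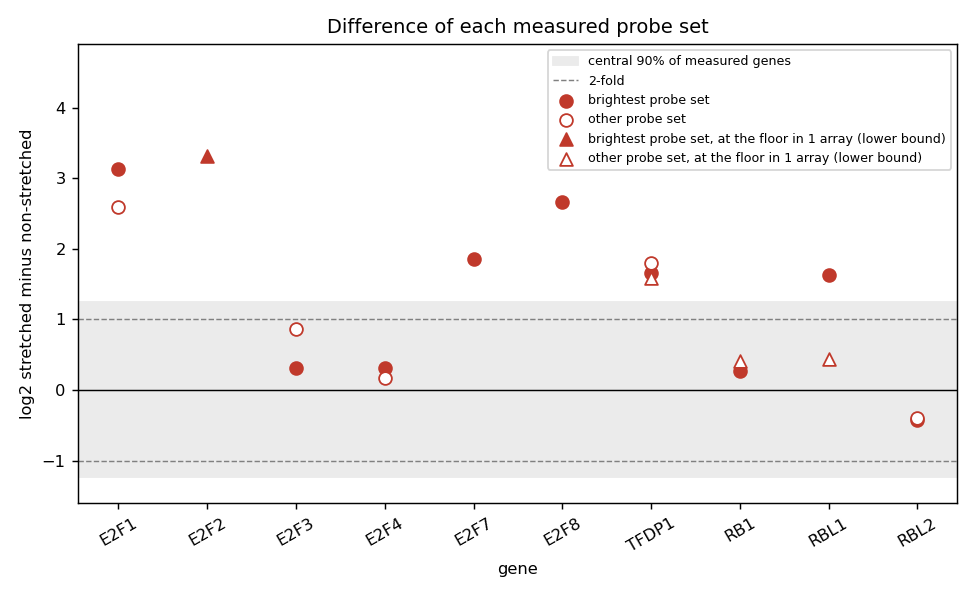
Log2 stretched minus non-stretched of each measured probe set (y axis) by gene (x axis); filled symbols are the brightest probe set of a gene, open ones the others, and triangles are lower bounds with 1 array at the floor. The shaded band holds the central 90% of measured genes (-1.23 to 1.24) and the dashed lines mark 2-fold; the brightest probe sets of E2F1, E2F2, E2F7, E2F8, TFDP1 and RBL1 lie above the band.

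Ordered by difference, the genes ran E2F2, E2F1, E2F8, E2F7, TFDP1, RBL1, E2F3, E2F4, RB1 and RBL2. An SD of 0.50, which leaves out variation between cultures, applies to a difference between 2 single probe sets. The gaps that exceeded it were E2F8 to E2F7 (0.80), RBL1 to E2F3 (1.32) and RB1 to RBL2 (0.71). A gap of that size does not show that the genes would rank apart in further cultures. Other neighbours, such as E2F1 and E2F8 (0.46) or TFDP1 and RBL1 (0.02), differed by less, and the E2F2 value is a lower bound. The widest gap, between RBL1 and E2F3, separates the 6 genes past 2-fold from the other 4.

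Set against each other by role, 2 of 3 activators and 3 of 6 repressors (E2F4, E2F7, E2F8 and the pocket proteins) were at least 2-fold higher. Over all measured genes that share was 7.78%. The median log2 difference was 3.13 for the activators and 0.97 for the repressors, beside 0.005 for all measured genes. The repressors were themselves uneven: the median was 1.86 over the repressor E2F genes and 0.28 over the pocket proteins. With 3 and 6 genes these medians are descriptions, and each is set by 1 or 2 genes. With the floor raised to the 75th percentile of each array (249.0 stretched, 231.1 non-stretched), both role medians became 0.31. That floor lies above the non-stretched signals of E2F1, E2F2 and E2F8. The count of members at least 2-fold higher became 3 of 9 (E2F1, E2F7 and TFDP1). The share over all measured genes was not counted at that floor.

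Genes around the pathway were taken from lists that were chosen with earlier results of these arrays known, so their counts are a description. The rest of the family differed by less than 2-fold in the brightest probe sets. E2F6, a repressor that works without pocket proteins, had 811.2 in the stretched array and 497.3 in the non-stretched array (0.71). E2F5, which pairs mostly with RBL2, had 670.9 in the stretched and 541.7 in the non-stretched array (0.31). TFDP2, the other common dimer partner, had 623.3 in the stretched array and 881.1 in the non-stretched array (-0.50), and its 4 probe sets lay between -1.02 and -0.50. The partner genes TFDP1 and TFDP2 thus differed in opposite directions in all of their measured probe sets. TFDP3 was below the floor in both arrays.

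The MuvB proteins join E2F4 and RBL2 in the DREAM complex, which silences cell-cycle genes in resting cells, and join the activators MYBL2 (B-Myb) and FOXM1 later in the cycle. Of 8 such genes, 5 were 2-fold or more higher and none was that much lower, against 7.78% and 7.49% of all measured genes. The median was 1.35. LIN9, LIN54 and MYBL1 passed the floor only in the stretched array, so this count and median rest partly on lower bounds. With the floor at the 75th percentile, 2 of 4 measured were 2-fold or more higher, with a median of 0.85. MYBL2 had 1346 in the stretched array and 209.5 in the non-stretched array, 6.42-fold higher. FOXM1 had 730.1 in the stretched and 149.9 in the non-stretched array, 4.87-fold higher. MYBL1 was at least 6.09-fold higher, with another of its probe sets at 0.33 on the log2 scale. The core subunits split: LIN9 was at least 3.10-fold and LIN54 at least 2.10-fold higher, both from below the floor, while LIN52, RBBP4 and LIN37 were at 0.57, 0.04 and -0.13. Another RBBP4 probe set was at 1.53.

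Of 9 measured cyclins and kinases that phosphorylate pocket proteins, 5 were 2-fold or more higher and 1 was that much lower (median 1.11). The shares over all measured genes were 7.78% higher and 7.49% lower. CCNE2, cyclin E2, had 460.9 in the stretched array and 51.4 in the non-stretched array, 8.97-fold higher. CCNE1, cyclin E1, had 1146 in the stretched and 139.1 in the non-stretched array, 8.24-fold higher. CCNA2 and CDK2, which take over in S phase, were 4.25-fold and 3.93-fold higher. Of those that act earliest, CDK6 was 2.16-fold higher (its 5 probe sets from 0.29 to 1.11), and CCND3, CDK4 and CCND1 were at 0.92, 0.53 and 0.43. CCND2, cyclin D2, had 26.7 in the stretched array, below the floor, and 177.5 in the non-stretched array, which makes it at least 6.26-fold lower, and the second CCND2 probe set was at -0.59. CCNA1 was below the floor in both arrays.

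Of 6 measured inhibitors of these kinases, 2 were at least 2-fold lower and none at least 2-fold higher (median -0.54). Among all measured genes, 7.49% were that much lower and 7.78% that much higher. CDKN1C (p57) had 76.5 in the stretched array and 299.6 in the non-stretched array, 3.91-fold lower, and its 4 probe sets lay between -1.97 and -1.71. CDKN2B (p15) had 490.7 in the stretched and 1594 in the non-stretched array, 3.25-fold lower, but its other probe set was at -0.14. CDKN1A (p21) and CDKN1B (p27) were at -0.55 and -0.53, CDKN2A was at 0.01 and CDKN2D at 0.96.

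All 30 measured genes of the list of E2F targets at the G1/S transition were 2-fold or more higher in their brightest probe set. Over all measured genes that share was 7.78%. The list had a median of 2.08 and a range of 1.13 (SLBP) to 3.45 (CDC25A). ORC1, the largest subunit of the origin recognition complex, had 412.2 in the stretched array and 47.9 in the non-stretched array, 8.60-fold higher. POLA2, a subunit of DNA polymerase alpha, had 761.4 in the stretched and 111.5 in the non-stretched array, 6.83-fold higher. CDC45 of the replicative helicase was 9.41-fold higher. Dimmer probe sets were smaller for a few genes, down to -0.24 for CHEK1 and 0.46 for HELLS. Of the 28 with a promoter window, 25 held an E2F form, 22 the CCAAT box bound by the factor NF-Y and 2 the CHR element (TTTGAA).

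Of 20 mitotic genes that DREAM is known to bind, 17 were 2-fold or more higher and none was that much lower (median 1.78). All measured genes had shares of 7.78% higher and 7.49% lower. AURKB, BIRC5, KIF23 and PLK1, which act in chromosome segregation and cell division, were highest, at 2.65, 2.49, 2.48 and 2.41 on the log2 scale, although a second AURKB probe set was at 0.29. CDC25C, CCNB2 and KIF20A were at 0.95, 0.89 and 0.73, and a second CCNB2 probe set was at -0.71. Of 16 mitotic genes with a promoter window, 12 held the CHR element, 15 the CCAAT box and 5 an E2F form. Over all promoter windows these shares were 15.2% for the CHR element and 34.6% for the CCAAT box. Genes with several starts were counted if any window matched, base composition was not adjusted for, and both lists are of genes known for these elements.

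Not every list tied to the pathway shared this difference. Of 10 measured apoptosis genes reported as E2F1 targets, none was at least 2-fold higher, 1 was at least 2-fold lower and the median was -0.19. These counts are near the shares over all measured genes (7.78% higher, 7.49% lower). TP53INP1 had 32.6 in the stretched array, near the floor, and 319.1 in the non-stretched array, 9.79-fold lower. The caspases CASP8 and CASP9 were at -0.76 and -0.67, and MAP3K5 was at 0.52. TP73, a p53 relative and a classic E2F1 target, had 50.2 in the stretched and 51.5 in the non-stretched array (-0.04). E2F1 itself was 8.73-fold higher in an array pair in which no measured gene of this list was at least 2-fold higher.

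Of 11 measured co-repressors that bind pocket proteins, 1 was at least 2-fold higher (median 0.13), near the 7.78% of all measured genes. It was SUV39H1, a histone H3 lysine methyltransferase, with 632.2 in the stretched array and 171.0 in the non-stretched array, 3.70-fold higher. KDM5A, SMARCA4 and HDAC3 were at -0.66, 0.49 and 0.38. The brightest probe sets of SMARCA2 and SIN3A were at -0.16 and -0.13, with others at -1.39 and 1.10. With the _x_at and _s_at probe sets left out, none of 7 measured co-repressors was 2-fold higher and 1, SMARCA2, was that much lower. Of 9 measured partners of the E2F6 complex, 1 was at least 2-fold higher (median -0.004), also near that 7.78%. PCGF6 had 256.1 in the stretched and 79.8 in the non-stretched array, 3.21-fold higher, while MGA, EHMT2 and CBX3 were at 0.68, -0.33 and 0.20. Another EHMT2 probe set was at 0.77, and MAX was at -0.06 with another probe set at 1.18. Of 8 genes for the turnover of E2F and pocket proteins, 3 were at least 2-fold higher (median 0.74), against 7.78% of all measured genes. FBXO5 (EMI1), CCNF (cyclin F) and SKP2, which control ubiquitin ligases of the cell cycle, were 5.20-fold, 4.69-fold and 2.72-fold higher, and CUL1 was at 0.76.

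**Figure D4:**
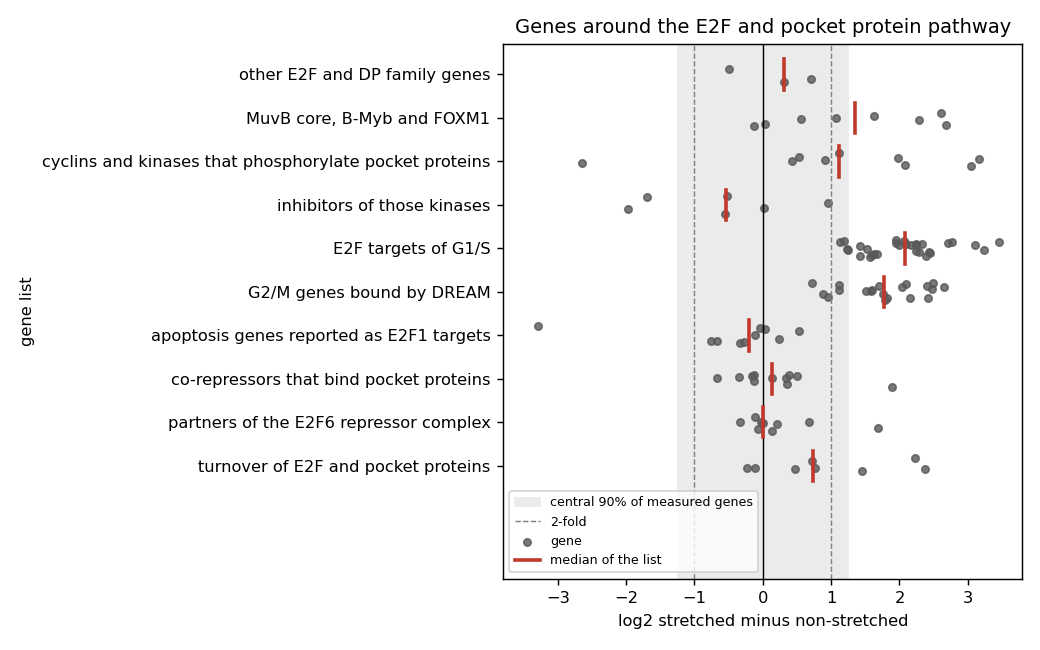
Log2 stretched minus non-stretched (x axis) of each measured gene in 10 lists around the pathway; dots are genes, red bars are list medians, the shaded band holds the central 90% of measured genes and dashed lines mark 2-fold. All dots of the G1/S target list lie past 2-fold higher, while the lists of apoptosis genes, co-repressors and E2F6 partners centre near 0.

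All 9 epithelial markers were above the floor in both arrays, among them KRT8 with 10914 in the stretched and 9458 in the non-stretched array. ELF3, MUC1 and CFTR, genes of differentiated airway epithelium, were at -1.86, -1.45 and -1.43, and the other 6 differed by less than 2-fold. Over all measured genes, 7.49% were at least 2-fold lower. The summed signal of the epithelial list was 49509 in the stretched and 55333 in the non-stretched array. Of the 4 leukocyte markers named on the array, 3 exceeded the floor in the stretched array and 2 in the non-stretched, with LYZ, which airway gland cells also make, holding most of the sum (1571 stretched, 1346 non-stretched). The defining leukocyte marker PTPRC and the endothelial markers CDH5, VWF, KDR and TEK were below the floor in both arrays. Of 6 fibroblast markers, 2 exceeded the floor in the stretched array and 3 in the non-stretched, with sums of 193.8 in the stretched and 238.4 in the non-stretched array. Endothelial sums were 89.4 in the stretched and 92.4 in the non-stretched array, with 1 of 5 above the floor in each. RNA integrity, read as the ratio of 3′ to 5′ probe sets, was 1.01 in the stretched and 1.04 in the non-stretched array for ACTB, and 0.86 in the stretched and 0.88 in the non-stretched array for GAPDH. Hybridisation spike-ins had a median log2 difference of -0.11 over 18 probe sets. The part of the lower differentiation markers in the differences of the E2F and pocket protein genes was not tested.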

How the data were processed

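The deposited series matrix holds 1 linear signal intensity per probe set and array for 54675 probe sets, 62 of them controls. Per the labels' protocols, biotinylated cRNA was made from 6 µg of total RNA and hybridised to Affymetrix arrays, while the sources used here do not give the summarisation, scaling or detection software. The 2 columns were used as deposited, since their medians (28.4 stretched, 28.7 non-stretched) differed by less than 0.1 on the log2 scale. The platform annotation gave probe set names, with symbols updated through the gene ID to RefSeq (GRCh38.p14). 1801 that list several genes and 11721 without a name here entered no count. The probe set that was brightest on average (log2) stood for its gene. Values were set to a floor at the 50th percentile of each array, and differences of at least 2-fold were counted (Python 3.11.15, pandas 2.3.3). With 1 array per group no test was made. List genes without a probe set of their own were not analysed here. The named genes are all members, the up to 4 measured genes of each list with the largest differences and, in lists of up to 10, further genes where they help, beside some chosen after their values were seen (the extremes of a list, genes just short of 2-fold and TP73). The members, lists and motifs were chosen with earlier results of these data known. The code was tested on simulated arrays.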

Additional observations from a re-analysis of the deposited data

How the results depend on the processing

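Dividing each array by its 75th percentile moved the median of all measured genes by -0.11 on the log2 scale. With this scaling, and with a loess trend removed, 6 members were at least 2-fold higher. With the floor at the 75th percentile, RBL1 was no longer measured, E2F2 and E2F8 had lower bounds of 0.30 and 0.92, and 3 members were at least 2-fold higher. The median was then 0.31 over the members, 0.31 over the activators, 0.31 over the repressors and 0.92 over the repressor E2F genes, because the higher floor lies above the low signals. At that floor 2 of 4 measured MuvB genes were 2-fold or more higher, and the counts past 2-fold became 1 lower inhibitor, 0 lower cyclins or kinases, 0 lower apoptosis genes and 0 higher E2F6 partners. Averaging probe sets gave RBL1 a lower bound of 1.04 and left 1 lower inhibitor. With the _x_at and _s_at probe sets left out, E2F3 had no value, and the genes 2-fold or more higher were 17 of 17 measured G1/S targets and 10 of 12 measured G2/M genes, since fewer genes were left, CCND2 left the count of lower cyclins, and 0 of 8 measured E2F6 partners were higher. Of 58 single member values over these alternatives, 55 moved by less than the SD of a probe set. Many of these could hardly move. The 75th percentile scaling shifted all members by the same -0.11. Dropping the floor changed only E2F2, and leaving out _x_at and _s_at probe sets changed no remaining member. The values lost for RBL1 and E2F3 are not among the 58. Over all results, list counts included, 31 of 308 values moved by more than their limit (that SD, or 1.5-fold for a count). Shares of all measured genes past 2-fold were not counted under these alternatives. No paired analysis was possible because each group has 1 array. Signal near the floor limits the size of the E2F2 and RBL1 differences.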
